A study of Mus musculus with 2 samples.

Results

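The oxidative phosphorylation subunits were taken as the gene symbols that begin with *Nduf* followed by a, b, c, s or v and a number, *Sdha* to *Sdhd*, those that begin with *Uqcr*, *Cyc1*, those that begin with *Cox* and a number from 4 to 8, and those that begin with *Atp5*, without pseudogene symbols. This gave 85 of the 23183 genes in the deposited values, 37 of complex I, 4 of complex II, 9 of complex III, 18 of complex IV and 17 of complex V, the ATP synthase. The rule uses symbols and no values, though it was chosen with earlier results of these data known. Their mRNA levels were compared between 2 libraries of mouse lung cancer cells, 1 from KPR- and 1 from KPR restored cells, to see which subunit genes differ after *Runx3* restoration. The levels are FPKM (fragments scaled to transcript length and to sequencing depth).

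Both libraries come from immortalized cells grown from lung tumors of KPR L/F mice, which carry a *K-Ras* LSL-G12D/+ allele together with *p53* flox/flox and with *Runx3* flox/FSF, and have a Tomato reporter and Flp ERT2, so that K-Ras activation and p53 loss after nasal Ad-Cre are common to both. In KPR- cells (genotype label RUNX3 -/-, 0 h) one *Runx3* allele is deleted and a *Frt-Stop-Frt* cassette keeps the other off. In KPR restored cells (RUNX3 -/+, 16 h) 4-OHT, an active form of tamoxifen, has switched on Flp ERT2, which takes the cassette out. The labels list 1 μM 4-OHT for both libraries, whereas the study's text makes 4-OHT what separates the groups. Whether the cells are 1 clone or come from 1 mouse is not given in the sources used here. With 1 library per group there is no replicate check, no p-value was computed, and every difference is between these 2 libraries.

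*Runx3* itself had 0.348 and 0.349 FPKM in the KPR- and KPR restored libraries, so the values per gene do not check the labels, and directions refer to the library labelled KPR restored. Of the epithelial markers, 5 of 5 were above a mean of 1 FPKM, and *Krt8* stood at 1711 and 1631 FPKM. The lung markers *Sftpc*, *Sftpb* and *Scgb1a1* were listed at 0 in both libraries and *Nkx2-1* at 0.044 and 0.022 FPKM, so the lung origin in the labels is not seen in these markers. Of 6 mesenchymal markers 2 averaged 1 FPKM or more, *Vim* at 1777 and 1464 FPKM and *Col1a1* at 12.2 and 4.21 FPKM, and the others, among them *Pdgfra* at 0.273 and 0.363 FPKM, were below 1 FPKM. Of 4 leukocyte markers 1 did, *Cd68* at 3.08 and 6.78 FPKM with *Ptprc* at 0 and 0.0089 FPKM. Muscle and endothelial markers were below 1 FPKM. The part of these markers in the subunit levels was not tested, and in bulk RNA fewer cells of a type and less RNA per cell cannot be told apart. The depth, read from the steps of low FPKM values, was about 21.75 M fragments in KPR- and 22.45 M in KPR restored.

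Oxidative phosphorylation takes electrons from NADH through complex I (NADH dehydrogenase) and from succinate through complex II (succinate dehydrogenase) to ubiquinone, then through complex III (cytochrome bc1) and cytochrome c to complex IV (cytochrome c oxidase), which reduces oxygen. Complexes I, III and IV pump protons across the inner mitochondrial membrane, and complex V uses the returning protons to make ATP. Complexes I, III, IV and V also hold subunits made from mitochondrial DNA, and no mitochondrially encoded gene is among the values used here (0 symbols), so the comparison is of nuclear subunit genes.

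The subunit genes were high and nearly level in both libraries. Of the 85 genes, 78 averaged 1 FPKM or more over both libraries, here called expressed, with a median of 113 FPKM in KPR- and 114 in KPR restored, against 13.5 and 13.9 FPKM over the 11231 expressed genes. The other 7 are alternative isoforms described with complex IV and complex I. Together the 78 genes summed to 13004 FPKM in KPR- and 13456 in KPR restored, 2.49% and 2.57% of the FPKM of all genes. The order of the levels was close to the same in both libraries (Spearman's rho 0.988, Pearson's r of log2 levels 0.98, across 78 genes that share both libraries). *Atp5b*, the catalytic beta subunit of the ATP synthase, was the highest in each, at 830 and 785 FPKM.

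Differences are given on the scale log2(FPKM + 0.005), KPR restored less KPR-, with 0.5 (a 1.41-fold difference) as the threshold. At this threshold 3 of the 78 subunit genes differed (3.85%), against 21.4% of the 11231 expressed genes. Of these, 2 were higher, *Ndufs5* and *Uqcrq*, against 12.1% of all expressed genes, and 1 was lower, *Ndufb5*, against 9.29%. A difference of 0.25 or more was seen for 14 of 78 (17.9%), against 49.9% of all expressed genes, and 38 (48.7%) lay within 0.1 of 0, against 22.4%. The interquartile range was 0.21 for the subunit genes and 0.50 for all expressed genes. Their median was 0.045, against 0.0086, and 49 of the 78 were above 0, against 5728 of the 11231 expressed genes. The subunit median was 0.010 after scaling to the same upper quartile and -0.049 once the trend with transcript length was removed. Among the 1795 genes that averaged 50 FPKM or more, 14.8% reached 0.5, and among the 68 subunit genes at that level 1 did.

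**Figure D1:**
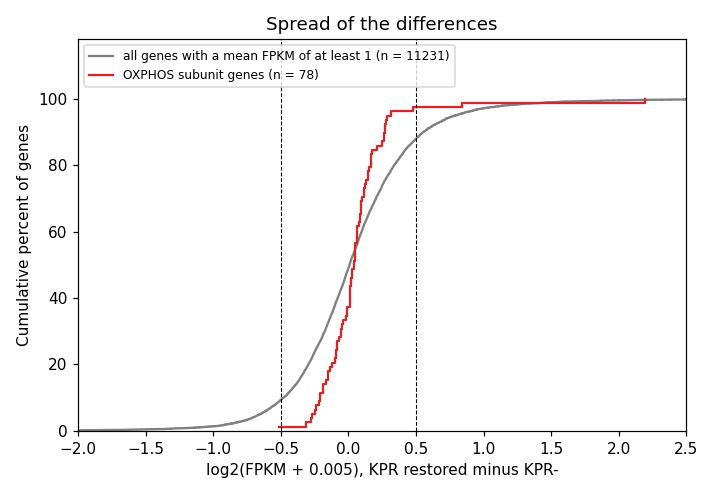
Cumulative percent of genes (vertical axis) at or below each log2 difference of FPKM, KPR restored minus KPR- (horizontal axis), for the 78 expressed oxidative phosphorylation (OXPHOS) subunit genes in red and the 11231 expressed genes in gray, with dashed lines at -0.5 and 0.5. The red curve is steeper, with an interquartile range of 0.21 against 0.50, and 3 of its 78 steps lie beyond the dashed lines. The horizontal axis ends at -2 and 2.5.

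Fragments behind each value were estimated from the depth and the length of the shortest RefSeq-matched transcript, and gave a 95% interval (exact Clopper-Pearson) that covers counting error only. These estimates ran from 14 to 30875 fragments, with a median of 1455.5 in KPR-. The interval did not hold 0 for 39 of the 78 subunit genes (50%), 23 above and 16 below, against 65% of the 11128 expressed genes with an interval. For 72 of the 78 the whole interval lay between -0.5 and 0.5, and for 2, *Ndufs5* and *Uqcrq*, it lay wholly beyond 0.5. At this depth small differences therefore exceed counting error in these libraries, but how far 2 cultures of the same cells would differ is not known.

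**Figure D2:**
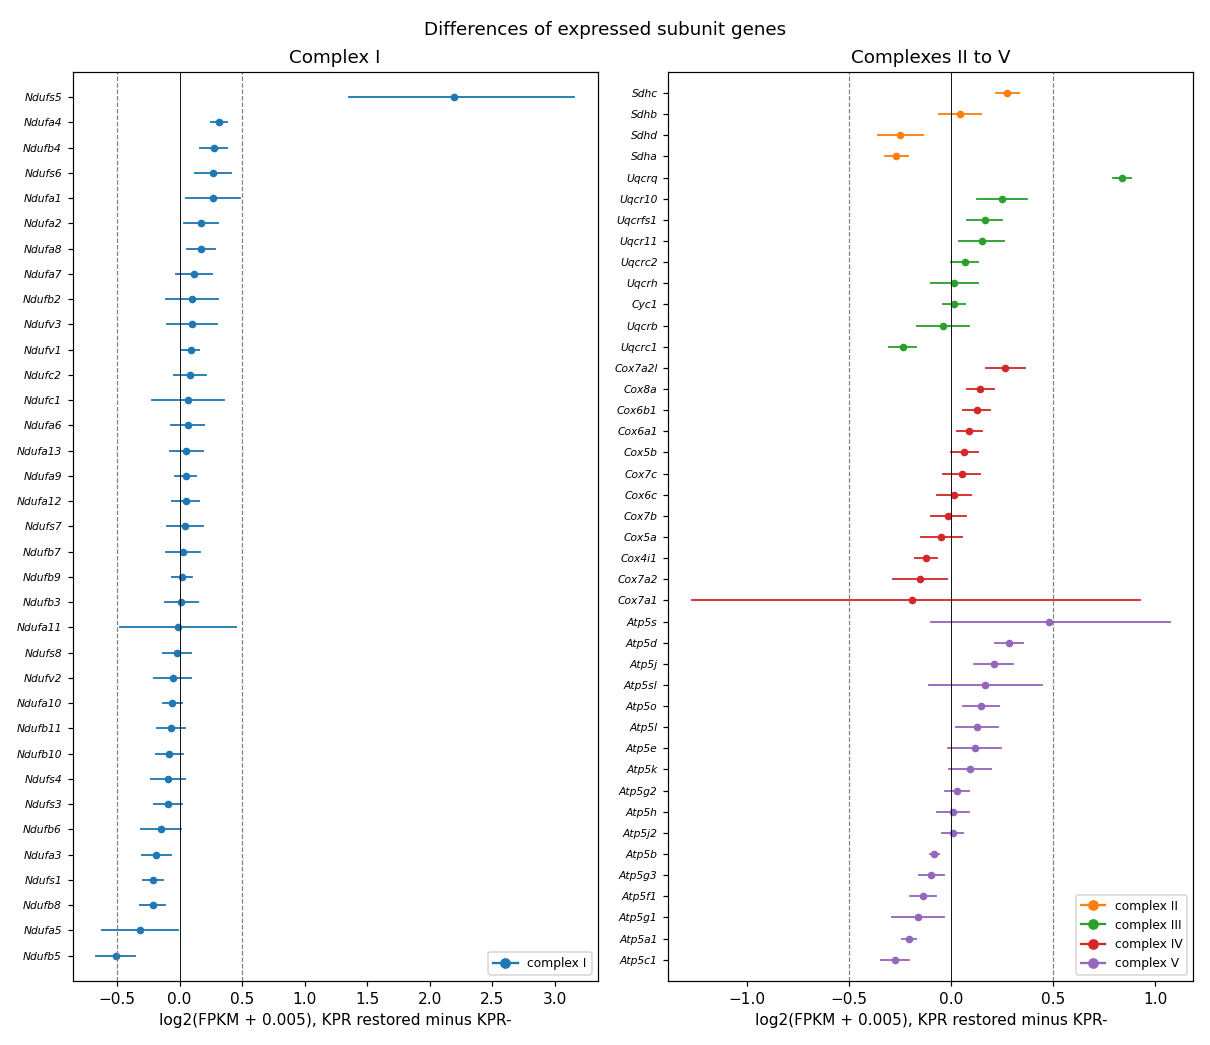
Log2 difference of FPKM (horizontal axes), KPR restored minus KPR-, of the expressed subunit genes, of which 1 of complex I is not plotted, with complex I on the left and complexes II to V on the right, each on its own scale. Points are the differences from 1 library per group, bars are 95% counting intervals, and dashed lines mark -0.5 and 0.5. *Ndufs5* at 2.19 and *Uqcrq* at 0.84 lie apart from the rest, and the bar of *Ndufb5* at -0.51 crosses the line.

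*Ndufs5*, which encodes a small accessory subunit of complex I at the intermembrane space side, stood at 2.02 FPKM in KPR- and 9.25 in KPR restored. It was the lowest of the expressed complex I genes in both libraries, and its difference of 2.19 (4.58-fold, counting interval 1.36 to 3.15) rested on about 14 and 65 fragments. The gene lies on the minus strand of GRCm38 at chr4:123712710-123718202 and has a near-identical copy, the processed pseudogene *BC002163* on the plus strand at chr16:42955631-42955949. *BC002163*, of 319 bases, stood at 13.8 and 17.004 FPKM in the same libraries, above *Ndufs5* itself in FPKM, with a difference of 0.30. The mean fragment was about 207 bases in KPR- and 215 in KPR restored. FPKM of so short a transcript is unstable, and its order against *Ndufs5* need not be that of the fragments. Of the 525 bases of the *Ndufs5* transcript, 319 align to the copy with 99.4% identity and 2 mismatches, and these include the whole of the 318 coding bases. The stretch that holds both mismatches, coding bases 36 to 125 within 1 exon, is shown from GENCODE M21 transcripts for the gene and its copy, with the differing bases in capitals.
Ndufs5: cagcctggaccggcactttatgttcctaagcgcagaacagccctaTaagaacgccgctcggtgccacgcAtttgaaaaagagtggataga
BC002163: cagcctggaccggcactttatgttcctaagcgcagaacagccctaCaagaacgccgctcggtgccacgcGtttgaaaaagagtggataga
A read of that stretch can be told apart only by the bases in capitals, and other coding reads match both genes equally. Summed over both, the level was 15.8 FPKM in KPR- and 26.3 in KPR restored, a difference of 0.73. In this sum a fragment of the shorter copy weighs more than a fragment of *Ndufs5*. The 0.73 is therefore not a difference of pooled fragments. How the counting divided reads between them is not given in the sources used here, and its part in the difference of *Ndufs5* was not tested.

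*Uqcrq* encodes a small membrane subunit of complex III. It stood at 224 FPKM in KPR- and 401 in KPR restored, a difference of 0.84 (1.79-fold, counting interval 0.80 to 0.88). It moved from place 17 to place 9 in the order of the 78 levels. It lies on the minus strand at chr11:53427922-53430831 and has no near-identical copy by the criteria used here. GENCODE lists 3 coding transcripts of it, from 405 to 1521 bases, and the interval rests on the one of 1521 bases, so it is too narrow if the reads came from the shorter ones. FPKM depends on the length used, and whether the transcripts changed in proportion was not tested.

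*Ndufb5*, a subunit of the membrane arm of complex I, stood at 43.5 FPKM in KPR- and 30.5 in KPR restored, a difference of -0.51 (counting interval -0.67 to -0.36). The interval holds -0.5, so its side of the threshold is within counting error, and at a pseudocount of 1 the difference was -0.497. It lies on the plus strand at chr3:32736990-32751566, and its exons overlap those of *Mrpl47* on the opposite strand, which stood at 26.7 and 29.2 FPKM. The libraries were directional, but whether strand was used in the counting is not given in the sources used here. In all, 29 of the 85 subunit genes share exon positions with another gene, 24 of them only on the opposite strand.

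In complex I, 36 of 37 genes were expressed, with a sum of 3547 FPKM in KPR- and 3680 in KPR restored, and a median difference of 0.046, which became -0.047 once the length trend was removed. Its core subunits carry the flavin and the iron-sulfur clusters. *Ndufv1*, which binds NADH and the flavin, stood at 99.8 FPKM in KPR- and 106 in KPR restored, with a difference of 0.087 (-0.0048 with the length trend removed). *Ndufs1*, the largest core subunit, stood at 50.8 and 43.9 FPKM, with a difference of -0.21, and *Ndufv2* at 48.4 and 46.6 FPKM, with a difference of -0.055. These core subunits did not share a direction as deposited. With the length trend removed *Ndufs1* (-0.27) and *Ndufv2* (-0.15) were below 0, and *Ndufv1* (-0.0048) lay next to 0. *Ndufs3* stood at 71.0 and 66.6 FPKM (-0.092). *Ndufs7* and *Ndufs8*, which hold the clusters nearest to ubiquinone, had differences of 0.045 (-0.051 with the length trend removed) and -0.020.

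Accessory subunits of complex I spread further than the core. *Ndufa4*, first assigned to complex I and now placed with complex IV, was the highest of the list at 385 FPKM in KPR- and 479 in KPR restored, a difference of 0.32 (counting interval 0.25 to 0.38). Its paralog *Ndufa4l2* stood at 0.121 and 0.118 FPKM. *Ndufb9*, second highest, stood at 219 and 221 FPKM (0.017, and -0.079 with the length trend removed). *Ndufa5*, an accessory subunit of the matrix arm, stood at 87.6 and 70.4 FPKM, a difference of -0.32 (-0.62 to -0.0099), and went from place 51 to place 62. The other expressed genes of the complex lay between -0.22 for *Ndufb8* and 0.27 for *Ndufb4*. The difference was above 0 for 9 of 13 expressed *Ndufa* genes, 5 of 10 *Ndufb* genes and 4 of 8 *Ndufs* genes, against 5728 of 11231 expressed genes. These counts are without removal of the length trend, which put the median of complex I at -0.047.

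Complex II, which is made of 4 subunits and is also an enzyme of the tricarboxylic acid cycle, split within itself. *Sdha*, the flavoprotein that oxidizes succinate, stood at 95.1 FPKM in KPR- and 79.0 in KPR restored, a difference of -0.27 (counting interval -0.32 to -0.21). *Sdhb*, the iron-sulfur subunit, stood at 72.6 and 74.9 FPKM, a difference of 0.044 (-0.060 to 0.15), with -0.046 once the length trend was removed. The membrane anchors *Sdhc* and *Sdhd*, which hold the heme, went opposite ways. *Sdhc* stood at 73.0 and 88.4 FPKM (0.28, 0.22 to 0.33) and *Sdhd* at 65.7 and 55.3 FPKM (-0.25, -0.36 to -0.14). None of the 4 reached 0.5, and the sum was 306 FPKM in KPR- and 298 in KPR restored. The median of -0.10 lay below 0 under each scaling tried.

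In complex III the sum was 1474 FPKM in KPR- and 1710 in KPR restored, and 1250 and 1309 FPKM without *Uqcrq*. *Cyc1* (cytochrome c1) stood at 199 and 201 FPKM (0.015, and -0.077 with the length trend removed), and *Uqcrfs1*, the Rieske iron-sulfur protein, at 80.6 and 90.4 FPKM (0.17). These catalytic subunits thus differed less than *Uqcrq*. *Uqcrc1*, one of the large core proteins, stood at 127 and 108 FPKM (-0.24, counting interval -0.30 to -0.17), while its partner *Uqcrc2* had a difference of 0.067 (-0.016 with the length trend removed). The small subunits *Uqcr10* (195 and 232 FPKM, 0.25) and *Uqcr11* (245 and 272 FPKM, 0.15) had intervals above 0 and differences below the threshold, and *Uqcrb* (143 and 138 FPKM, -0.042), which has 3 near-identical pseudogenes, had an interval that holds 0. The median of the 9 genes was 0.067, and -0.016 with the length trend removed.

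In complex IV, 12 of the 18 genes were expressed, none of them past 0.5, with a median of 0.034 that was -0.00061 after upper quartile scaling. The sum was 3296 FPKM in KPR- and 3398 in KPR restored. Several subunits of this complex exist as alternative isoforms, of which one is common to most tissues and another is found in heart and skeletal muscle, in testis or under low oxygen. In both libraries the common form made up nearly the whole of each family but *Cox7a*, which was grouped here with the related *Cox7a2l*. *Cox4i1* stood at 523 and 480 FPKM, while *Cox4i2*, known from lung and for its induction by low oxygen, stood at 0.176 and 0.0864 FPKM, about 2 fragments and 1. *Cox6a1* stood at 533 and 566 FPKM, and the muscle form *Cox6a2* was listed at 0 in both libraries. *Cox8a* stood at 487 and 538 FPKM, while *Cox8b* and *Cox8c* were listed at 0 in both, as was *Cox7b2* beside *Cox7b* at 127 and 126 FPKM. The alternative forms were thus at or near 0 in each of these families.

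*Cox6b1* stood at 392 FPKM in KPR- and 428 in KPR restored. Its testis form *Cox6b2* was listed at 0 in KPR- and stood at 0.909 FPKM in KPR restored, about 4 fragments, so no fold is given. The *Cox7a* family as grouped here was shared mainly between *Cox7a2* and *Cox7a2l*, of which *Cox7a2l* is not counted as a structural subunit. *Cox7a2*, the common subunit, made up 53.1% of the family's summed FPKM in KPR- and 46.2% in KPR restored. *Cox7a2l*, which takes part in joining complexes III and IV into supercomplexes, made up 44.7% and 52.0%. *Cox7a2* stood at 99.99 and 90.004 FPKM (-0.15, counting interval -0.28 to -0.020), and *Cox7a2l* at 84.3 and 101 FPKM (0.27, 0.17 to 0.36). In FPKM the larger of these was thus *Cox7a2* in KPR- and *Cox7a2l* in KPR restored. In estimated fragments *Cox7a2l* was the larger in KPR- (1594 against 985) and in KPR restored (1961 against 899). The change of order in FPKM therefore rests on the transcript lengths used. The heart and muscle form *Cox7a1* stood at 4.15 and 3.64 FPKM, far below *Cox7a2* in both libraries.

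**Figure D3:**
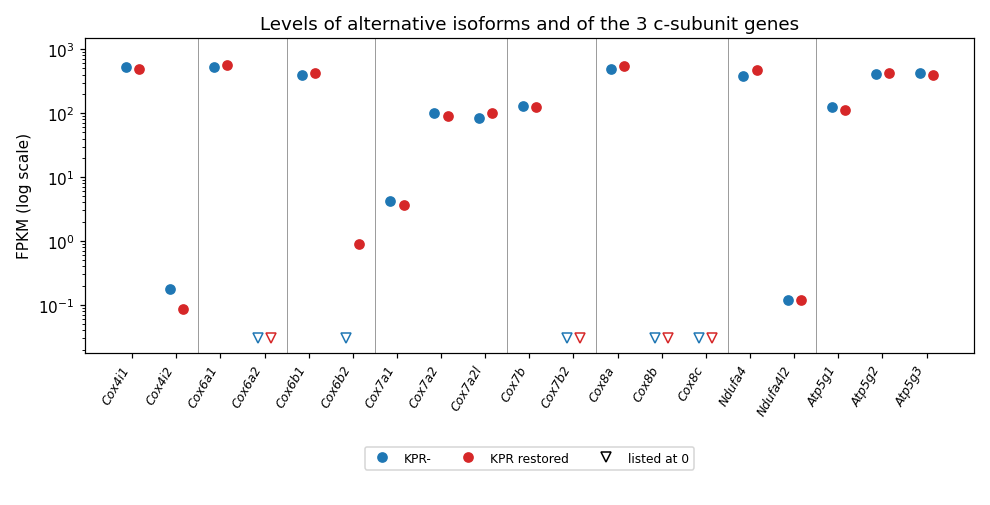
FPKM on a log scale (vertical axis) of the alternative isoforms of complex IV subunits, of *Ndufa4* with *Ndufa4l2*, and of the 3 genes of the ATP synthase c subunit, in KPR- (blue) and KPR restored (red), with open triangles for genes listed at 0. Gray lines part the families, and 1 library stands behind each point. In each family but *Cox7a* and the c subunit one gene stands at 127 FPKM or above in KPR- and the others are below 1 FPKM in both libraries.

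In complex V, 17 of 17 genes were expressed, none past 0.5, and the sum was 4381 FPKM in KPR- and 4370 in KPR restored. Of the catalytic F1 part, the alpha, beta and gamma subunits had differences below 0 and the delta and epsilon subunits above 0. *Atp5a1* (alpha) stood at 295 and 255 FPKM (-0.21), *Atp5b* (beta) at 830 and 785 FPKM (-0.081, counting interval -0.10 to -0.058), and *Atp5c1* (gamma) at 179 and 148 FPKM (-0.28, -0.34 to -0.21). *Atp5d* (delta) stood at 202 and 246 FPKM (0.28, 0.21 to 0.35), and *Atp5e* (epsilon) had a difference of 0.12 with an interval that holds 0 (-0.015 to 0.25). Subunits that stand in fixed proportion in the enzyme thus differed in opposite directions at the mRNA level. The 3 genes that encode the same mature c subunit of the proton-driven ring stood at 126 and 113 FPKM for *Atp5g1*, 415 and 424 FPKM for *Atp5g2*, and 416 and 389 FPKM for *Atp5g3*. *Atp5g1* had the smallest share in both libraries. *Atp5g2* and *Atp5g3* had nearly equal shares in KPR-, 43.3% and 43.5%, against 45.8% and 42.0% in KPR restored. In estimated fragments *Atp5g2* was the larger in KPR- too (4741 against 4600), so no change of order is read from these shares. *Atp5g2* has 2 near-identical pseudogenes, and its difference of 0.030 turned to -0.066 with the length trend removed.

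The 4 peripheral stalk genes ran from -0.14 for *Atp5f1* to 0.21 for *Atp5j*, and *Atp5k*, *Atp5l* and *Atp5j2* of the membrane part from 0.0085 for *Atp5j2* (-0.086 with the length trend removed) to 0.13. *Atp5k* was among the highest of the complex at 422 FPKM in KPR- and 450 in KPR restored (0.093, and -0.0065 with the length trend removed). *Atp5s* (coupling factor B) and *Atp5sl*, which are not counted as structural subunits, were the lowest. *Atp5s* stood at 1.57 and 2.20 FPKM, a difference of 0.48 that its counting interval of -0.097 to 1.07 did not set apart from 0. The median of complex V was 0.030, and -0.0043 after upper quartile scaling.

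The 13 catalytic core subunits over complexes I, II, III and V had a median difference of -0.020, with 6 of 13 above 0 and 0 past 0.5. The other 65 expressed genes had a median of 0.052, with 43 above 0, against 5728 of all 11231 expressed genes. Transcript length moved with the difference in these libraries. The subunit genes are short, with transcripts of 315 to 4715 bases and a median of 849.5, against 3021 for all expressed genes with a length. Pearson's r between log10 length and the difference was -0.20 and Spearman's rho -0.28 across the 78 genes, and -0.26 and -0.29 without *Ndufs5* and *Uqcrq*. Over all 11141 expressed genes with a length it was -0.17 and -0.22. The genes share the same 2 libraries, so these are descriptions. Expressed genes of 500 to 750 bases had a median of 0.10, those over 5000 bases a median of -0.15, and the 27 subunit genes of 500 to 750 bases a median of 0.030. The share of all expressed genes past 0.5 was between 20.1% and 28.4% in each length class, against 3.85% of the subunit genes.

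**Figure D4:**
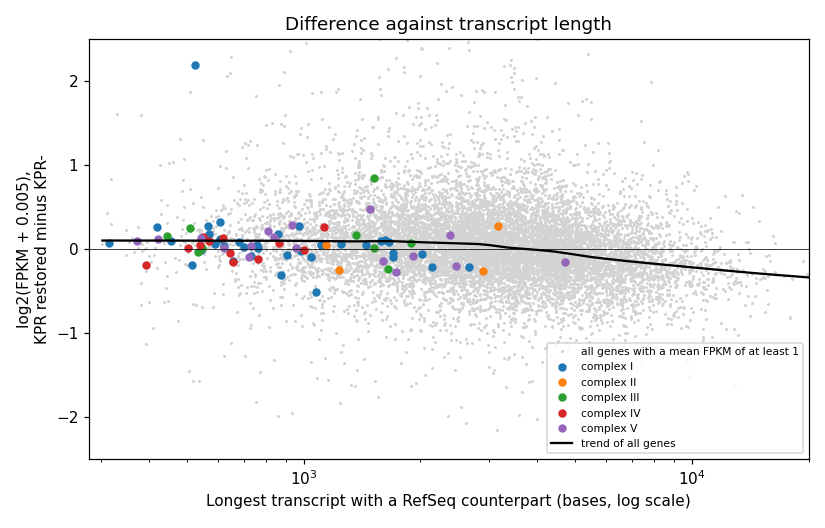
Log2 difference of FPKM, KPR restored minus KPR- (vertical axis), against the longest transcript with a RefSeq counterpart in bases (horizontal axis, log scale), for expressed genes in gray and the 78 subunit genes colored by complex. The black line is the trend of all genes, which is above 0 for short transcripts and below 0 for the longest ones. *Ndufs5* at 2.19 is the highest of the subunit genes, which otherwise keep within 0.84 of 0, and gray points beyond 2.5 either way are not drawn.

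Subunit genes are known to share promoter sites for the nuclear respiratory factor NRF1, for the ETS factor GABP (also called NRF2) and for YY1. Of the 85 genes, 66 had a RefSeq promoter sequence (GRCm38.p6, 250 bases before to 50 after the start) by symbol, and each was searched on both strands. A gene was counted if any of its promoters held the motif. The NRF1 motif GCGCANGCG was in 20 of 66 (30.3%), against 7.03% of 27025 gene symbols with a promoter, or 31.7% against 16.4% among expressed genes. The ETS motif CCGGAAG was in 24.2% against 9.93%, but among expressed genes in 25.4% against 21.7%. The YY1 motif AAGATGGC was in 13.6% against 3.19%, or 14.3% against 5.68% among expressed genes. The letters TGTGGTT, a core that RUNX factors bind, were chosen after the values were seen and were in 1 of 66 (1.52%), against 6.09% of all and 4.15% of expressed genes. No overlap between different motifs was removed, and a match is not a measured site.

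The 250 bases before the start are shown for 3 genes, with matches in capitals. *Ndufs5* is the subunit gene with the largest difference and has an NRF1 match at -98 to -90. *Atp5l*, with 197 FPKM in KPR- and 215 in KPR restored (0.13), has an NRF1 match at -241 to -233 and an ETS match at -212 to -206, both on the minus strand. *Uqcr11* is the one with the RUNX letters, at -115 to -109 on the minus strand, and also has an ETS match at -66 to -60, while its NRF1 match crosses the start and so is not in the bases shown. Each is read 5′ to 3′ along its gene, from chr4:123718187-123718436, chr9:44920743-44920992 and chr10:80406822-80407071 of GRCm38, minus strand.
Ndufs5: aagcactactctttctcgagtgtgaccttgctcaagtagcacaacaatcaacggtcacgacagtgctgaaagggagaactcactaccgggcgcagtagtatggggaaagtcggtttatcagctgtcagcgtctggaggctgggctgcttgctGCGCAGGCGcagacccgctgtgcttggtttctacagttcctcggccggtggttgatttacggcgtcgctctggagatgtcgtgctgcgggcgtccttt
Atp5l: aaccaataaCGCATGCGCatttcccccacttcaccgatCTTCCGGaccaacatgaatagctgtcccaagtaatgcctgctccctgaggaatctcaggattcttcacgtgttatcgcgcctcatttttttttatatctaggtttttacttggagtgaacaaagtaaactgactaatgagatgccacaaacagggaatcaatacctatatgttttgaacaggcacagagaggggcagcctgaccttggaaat
Uqcr11: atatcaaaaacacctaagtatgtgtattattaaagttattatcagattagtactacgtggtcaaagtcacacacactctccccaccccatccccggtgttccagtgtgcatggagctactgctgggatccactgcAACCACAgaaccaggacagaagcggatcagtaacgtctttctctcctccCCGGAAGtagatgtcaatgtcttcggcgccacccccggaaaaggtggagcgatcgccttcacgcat
The motifs did not part the genes by their differences. The 20 expressed genes with the NRF1 motif had a median difference of 0.047 and the 43 without it 0.045, the medians were 0.066 and 0.045 with and without the ETS motif, and 0.045 and 0.046 with and without YY1.

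The other genes of the pathway were given by 4 lists. Of 48 assembly factors, which build the complexes and insert their cofactors, 47 were expressed, with a median difference of -0.045, and 3 were past 0.5, against 21.4% of all expressed genes. *Coa4*, a complex IV assembly factor, stood at 6.71 FPKM in KPR- and 12.2 in KPR restored (0.86, counting interval 0.58 to 1.13). *Sdhaf4*, which helps *Sdha* join complex II, stood at 15.4 and 10.5 FPKM (-0.55, -0.93 to -0.20). *Cox17*, the copper chaperone of complex IV, is named after its value was seen and stood at 90.3 and 130.0 FPKM (0.53, 0.35 to 0.70). The 4 subunit or regulatory genes whose symbols fall outside the pattern had a median of 0.12 and 0 past 0.5, from *2010107E04Rik* at 168 and 163 FPKM (-0.039) to *Atpif1*, the inhibitor of the ATP synthase, at 43.2 and 50.2 FPKM (0.22).

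Of 15 genes for electron carriers and ubiquinone synthesis, 14 were expressed, with a median of 0.16 and 1 past 0.5. This was *Coq10b*, a ubiquinone-binding protein, at 13.3 FPKM in KPR- and 21.4 in KPR restored (0.69, counting interval 0.42 to 0.96), while *Coq6*, a ubiquinone synthesis enzyme, was the lowest at 15.7 and 13.7 FPKM (-0.19). Of 14 regulators of mitochondrial biogenesis, 12 were expressed, with a median of -0.082 and 0 past 0.5. *Esrra*, an orphan receptor that binds promoters of this pathway, stood at 24.97 and 30.7 FPKM (0.30, 0.18 to 0.41), and *Polrmt*, the mitochondrial RNA polymerase, at 17.9 and 14.8 FPKM (-0.28, -0.39 to -0.16). *Ppargc1a*, the coactivator PGC-1alpha, was below the expression limit, at 0.380 and 0.688 FPKM (0.85), with an interval of -0.0046 to 1.73 that holds 0.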

How the data were processed

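Poly(A) RNA of 2 libraries was made into directional libraries, sequenced, trimmed and mapped with TopHat by the authors, who deposited FPKM values estimated with Cufflinks, 1 per gene and library. The submitters' notes name mm10, and the versions and the annotation are not given in the sources used here. No counts were used. The genes and lists, and the rule for naming genes, were chosen with earlier results of these data known. The rule took the genes past 0.5, the 2 highest and 2 lowest differences and 2 highest levels of each complex, core subunits, alternative isoforms, the extremes of each pathway list and *Runx3*, and others are named as examples chosen after their values were seen.

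Differences of log2(FPKM + 0.005) were computed without further scaling. The added 0.005 hardly changes genes well above 0 in both libraries. Where 1 library is at 0, it largely sets the size of the difference. Depth was fitted to the steps of low FPKM values with GENCODE M21 lengths (22156 symbols matched directly and 653 through a synonym). Among genes of 0.5 to 5.5 fragments, 79.2% and 80.5% lay within 0.1 of a whole number. Intervals are exact Clopper-Pearson (95%) for counting error only. Copies are transcripts of other genes with at least 95% identity over at least 50% of the longest RefSeq-matched transcript of a subunit gene by blastn 2.17.0. The length trend is a lowess (fraction 0.3) over expressed genes. The scripts were tested on simulated data. The values of 1 gene are not reported here. Alternatives were pseudocounts, filters, thresholds, scalings, the length trend and the choice of members. Python 3.11.15, pandas 2.3.3, scipy 1.17.1 and statsmodels 0.14.6 were used.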

Additional observations from a re-analysis of the deposited data

How the results depend on the processing

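With 1 library per group no result has a replicate check, and no replicate could be left out. No paired analysis was possible because each group has 1 sample and no result comes from a test. The counts of 2 higher and 1 lower genes were 10 and 4 at a threshold of 0.25 and 1 and 0 at a threshold of 1. At a pseudocount of 1 there were 0 lower, since *Ndufb5* was at -0.497, and without a filter on FPKM there were 3 higher and 2 lower, the added ones being *Cox6b2* (about 0 and 4 fragments) and *Cox4i2* (about 2 fragments and 1). Of alternatives added after the values were seen, a mean FPKM of at least 50 left 1 higher and 0 lower. Of the same alternatives, leaving out genes for which a near-identical copy was found left 1 higher, and counting *Ndufa4* in complex IV changed neither count. The median of all subunit genes ran from -0.049 with the length trend removed to 0.046 with the filter at 50. That removal also put complexes I, III, IV and V below 0, at -0.047, -0.016, -0.064 and -0.066. Scaling moved all genes by less than 0.1 (-0.0064, -0.034 and -0.0086). Of 258 alternative values of the 43 genes taken by the naming rule, 2 changed side of the threshold and 11 changed sign, all of them within 0.1 of 0. Of other genes named, *Uqcrc2* and *Atp5j2* also turned below 0 with the length trend removed, at -0.016 and -0.086.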
